A study of Homo sapiens with 27 samples.

Results

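Aldehyde dehydrogenases oxidize reactive aldehydes to carboxylic acids with NAD or NADP, and each member of the family is known for its own substrates and cell compartment. ALDH3A2, the fatty aldehyde dehydrogenase of the endoplasmic reticulum, removes long-chain aldehydes that arise from fatty alcohols, ether lipids, sphingolipids and phytol. Its paralogs act on retinaldehyde, acetaldehyde, or intermediates of proline, branched-chain amino acid, lysine, GABA and carnitine metabolism. Here 10 members were taken by symbol from a count table of 20268 genes, namely ALDH3A2, ALDH1A3, ALDH1B1, ALDH2, ALDH4A1, ALDH5A1, ALDH6A1, ALDH7A1, ALDH9A1 and ALDH18A1, and the table held 9 other ALDH symbols. ALDH3A2 was included because it was already known to fall in 22Rv1 cells of these libraries, so its change in that line is given as a description without a p-value.

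RNA was sequenced from 3 established prostate cancer cell lines with stable knockdown of CPSF1, the largest subunit of the cleavage and polyadenylation specificity factor, which recognizes the poly(A) signal at the end of a pre-mRNA. LNCaP cells are hormone-sensitive and LNCaP95 and 22Rv1 cells are hormone-insensitive. Every group, controls included, carried a lentiviral shRNA vector and had been selected with puromycin. The vector encoded a control hairpin (CTRL sh) or a hairpin against CPSF1, of which there were 2, named CPSF1 sh1 and CPSF1 sh2, and RNA was taken 72 h after seeding 500000 cells. LNCaP95 cells grew in phenol red-free medium and both other lines in standard medium, so for LNCaP95 line and medium cannot be told apart. Each of the 9 groups had 3 biological replicates, which gave 27 libraries, 9 per line. Selected cells were expanded before seeding, and the sources used here do not say whether the replicates came from separate infections.

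Libraries held 8515624 to 15904518 counts on genes, with a median of 11058723. The luminal prostate markers KLK3, HOXB13, FOLH1, TMPRSS2, KRT8 and KRT18 exceeded 2 CPM, that is, counts scaled to library size, in every CTRL sh library, and the basal markers TP63, KRT5 and KRT14 had CTRL sh means of 0, 0 and 1.73 CPM in LNCaP, 0, 0.030 and 2.39 CPM in LNCaP95, and 0.062, 0 and 0 CPM in 22Rv1. Summed marker levels were set side by side for CTRL sh and CPSF1 sh libraries. Their ranges were apart for some lists and lines and overlapped for others, and no sum was tested. The sum of those 6 luminal markers was 4069 to 4107 CPM in CTRL sh and 3034 to 3271 CPM in CPSF1 sh libraries of LNCaP, 4916 to 5113 against 3080 to 3322 CPM in LNCaP95, and 1494 to 1524 against 1383 to 1612 CPM in 22Rv1. For the neuroendocrine markers CHGA, SYP and ENO2 it was 109.7 to 128 against 16.6 to 35.3 CPM in LNCaP, 166 to 197 against 31.3 to 70.6 CPM in LNCaP95, and 316 to 326 against 263 to 336 CPM in 22Rv1. CTRL sh means of CHGA, SYP and ENO2 were 0.032, 1.53 and 116 CPM in LNCaP and 0, 2.15 and 179 CPM in LNCaP95. The CTRL sh sum in those lines was thus nearly all ENO2. For the basal markers the sum was 1.27 to 2.12 against 3.79 to 6.29 CPM in LNCaP, 1.65 to 3.03 against 2.45 to 5.99 CPM in LNCaP95, and at most 0.472 CPM in 22Rv1. The leukocyte markers PTPRC, CD3E and CD68 summed to 3.01 to 3.63 against 10.0 to 18.0 CPM in LNCaP, 6.42 to 9.44 against 16.2 to 34.6 CPM in LNCaP95, and 0.940 to 1.63 against 1.83 to 7.14 CPM in 22Rv1, with CTRL sh means of 0 for CD3E in every line and of 0, 0 and 0.030 CPM for PTPRC. The endothelial markers VWF and CDH5 summed to 22.5 to 28.2 against 9.30 to 12.7 CPM in LNCaP, 0.680 to 1.25 against 1.70 to 4.34 CPM in LNCaP95 and at most 0.289 CPM in 22Rv1, and the fibroblast markers COL1A1, COL1A2 and DCN to 22.1 to 26.3 against 13.4 to 16.6, 55.7 to 72.6 against 42.5 to 58.5, and 11.8 to 14.1 against 11.4 to 14.2 CPM in LNCaP, LNCaP95 and 22Rv1. CTRL sh means of CDH5 were 0 in every line, and those of COL1A2 and DCN were 0 in LNCaP and LNCaP95. The part of these differences in the changes of the members was not tested. CPSF1 mRNA fell in every line, with a log2 fold change of -0.65 for LNCaP (SE 0.056, adjusted p = 1.68e-07), -0.89 for LNCaP95 (SE 0.079, adjusted p = 1.31e-06) and -0.50 for 22Rv1 (SE 0.062, adjusted p = 9.66e-05).

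Replicate 3 of LNCaP CPSF1 sh1 stood apart. All 80 genes that were at 20 CPM or more in every 22Rv1 library and at a median of 0.2 CPM or less in the remaining LNCaP libraries were detected in it above 1% of their 22Rv1 level. Their median was 6.50% of the 22Rv1 level. For each of the 8 other LNCaP libraries, 72 to 78 genes were chosen anew by the same rule. The medians there were 0 to 0.104%. ALDH7A1, which is close to 0 in LNCaP cells, was at 5.36 CPM there and at 0.221 CPM or less in every other LNCaP library. ALDH3A2 was at 234 CPM there and at 180 and 179 CPM in the remaining CPSF1 sh1 libraries. The origin of these counts was not tested, and the main LNCaP results are given with and without this library. By a chi-square of counts between replicates, the 22Rv1 library that differed most was CPSF1 sh1 replicate 3, at 6.98 and 4.37 per degree of freedom from its replicates, which were at 1.92 from each other. Without it ALDH3A2 was at -0.73 in 22Rv1 (log2 fold change), ALDH4A1 at 0.16 and ALDH18A1 at 0.18. In LNCaP95, CTRL sh replicates 1 and 2 were at 5.03.

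**Figure D1:**
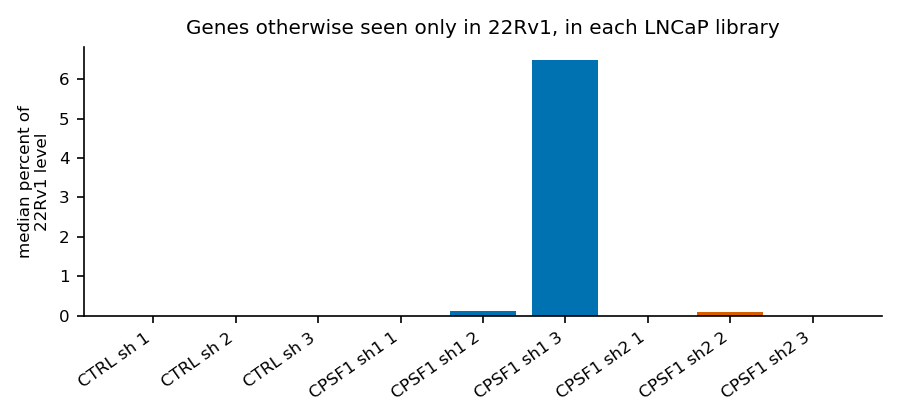
Bars give a median level for each of the 9 LNCaP libraries (x axis: hairpin and replicate), as a percent of the mean level in 22Rv1 libraries. The genes, chosen anew for each library, were at 20 CPM or more in every 22Rv1 library and at a median of 0.2 CPM or less in the remaining LNCaP libraries. CPSF1 sh1 replicate 3 is at 6.50% and the others at 0.104% or less.

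Because CPSF1 belongs to the complex that reads the poly(A) signal, the annotated 3′ end of the members was searched on the gene's strand for the hexamers AATAAA and ATTAAA. The 40 bases before the end of the last annotated base on GRCh37 held AATAAA in 7 of 10 members (ALDH1A3, ALDH1B1, ALDH4A1, ALDH5A1, ALDH7A1, ALDH9A1 and ALDH18A1), ATTAAA without AATAAA in ALDH2, and neither in ALDH3A2 and ALDH6A1. Among 20219 genes of the table, 55% held AATAAA in the same window, 12.7% ATTAAA without AATAAA and 32.3% neither. The annotated end need not be the end used in these cells, and a window without a match says only that these letters are not in it. Stretches of 30 bases are shown 5′ to 3′ for the 5 members whose changes are described most fully below, with the hexamer in capitals:
ALDH3A2, chr17:19580882-19580911, plus strand: ctataaatcattttatgtctttatcataga
ALDH2, chr12:112247753-112247782, plus strand: gctaagattcATTAAAaactagctgctctt
ALDH4A1, chr1:19197926-19197955, minus strand: agatgccacccAATAAAatgcctgttactt
ALDH6A1, chr14:74523553-74523582, minus strand: taatgaatgaggcagtgtctcctcatgcct
ALDH1B1, chr9:38398629-38398658, plus strand: aaaAATAAAcgtatacattctgtgagcaaa

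The first comparison asked how much of each member the lines hold before knockdown. ALDH3A2 was the most abundant member per length in 22Rv1 and ranked below ALDH18A1 and ALDH9A1 in LNCaP and LNCaP95. The gene spans 29.5 kb of chromosome 17 (19551449 to 19580911, plus strand, GRCh37) with 4701 bases of annotated exons. With CTRL sh it was at 1038, 1068 and 1101 CPM in the 22Rv1 libraries, at 200.0, 206 and 201 CPM in LNCaP, and at 189, 202 and 195 CPM in LNCaP95. The 22Rv1 libraries were all far above the others, and the ranges of LNCaP and LNCaP95 overlapped. Per kb of exon, the level was 227 ± 6.68 CPM in 22Rv1, 43.1 ± 0.653 in LNCaP and 41.5 ± 1.39 in LNCaP95 (SD, n = 3). The difference on the log2 scale was 2.40 between 22Rv1 and LNCaP (SE 0.040, adjusted p = 1.83e-26), 2.47 between 22Rv1 and LNCaP95 (SE 0.040, adjusted p = 9.81e-27) and -0.063 between LNCaP95 and LNCaP (SE 0.041, adjusted p = 0.161). This last difference was called without LNCaP95 CTRL sh replicate 2 (-0.092) and with library size alone (-0.094). Of 12281 genes tested, 83.8%, 85.9% and 78.6% differed in these respective contrasts, so a difference between lines was the usual result. In bulk RNA, fewer cells with a transcript and less transcript per cell cannot be told apart.

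The summed per-kb level of the 10 members was 443 ± 4.97 CPM in 22Rv1, 304 ± 3.63 in LNCaP and 250 ± 4.06 in LNCaP95 (SD, n = 3). ALDH3A2 made up 51.3 ± 0.934% of that sum in 22Rv1, 14.2 ± 0.378% in LNCaP and 16.6 ± 0.827% in LNCaP95. The highest mean per kb was that of ALDH3A2 in 22Rv1 and of ALDH18A1 in both other lines.

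ALDH18A1, which despite its name makes pyrroline-5-carboxylate from glutamate as the first step of proline synthesis, led the order in LNCaP at 72.7 ± 2.65 CPM per kb and in LNCaP95 at 91.4 ± 2.39, and came after ALDH3A2 and ALDH9A1 in 22Rv1 at 59.3 ± 0.536. ALDH9A1, which oxidizes trimethylaminobutyraldehyde for carnitine synthesis, was second in all 3 lines, at 70.4 ± 2.82, 55.1 ± 1.09 and 65.0 ± 1.13 CPM per kb in LNCaP, LNCaP95 and 22Rv1. Libraries of ALDH18A1 and ALDH9A1 overlapped in LNCaP, as did those of ALDH6A1 and ALDH1B1 in LNCaP95 and of ALDH1B1 and ALDH7A1 in 22Rv1. All other neighbours in the order were separated in these libraries. ALDH6A1, the methylmalonate semialdehyde dehydrogenase of valine breakdown, was at 27.7 ± 0.608, 21.2 ± 0.147 and 28.4 ± 0.471 CPM per kb in LNCaP, LNCaP95 and 22Rv1.

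ALDH1A3, ALDH2 and ALDH1B1 were highest in LNCaP. ALDH1A3, which makes retinoic acid from retinaldehyde, was at 98.7, 97.8 and 99.5 CPM in LNCaP, 8.07, 9.81 and 8.55 CPM in LNCaP95, and 0.489, 0.544 and 0.418 CPM in 22Rv1. The log2 difference was -3.50 for LNCaP95 minus LNCaP (SE 0.072, adjusted p = 6.4e-24) and -7.63 for 22Rv1 minus LNCaP (SE 0.12), the latter on 4 to 6 counts per 22Rv1 library. ALDH1A3 passed the filter of this comparison, a mean above 2 CPM, only through the other lines. Its 22Rv1 difference is therefore a description without a p-value. ALDH2, the mitochondrial acetaldehyde dehydrogenase, stepped down from 24.1 ± 1.03 CPM per kb in LNCaP to 12.5 ± 0.317 in LNCaP95 and 3.48 ± 0.604 in 22Rv1. ALDH1B1, a mitochondrial paralog of ALDH2, followed the same order of lines at 38.6 ± 0.322, 20.6 ± 1.12 and 15.3 ± 0.630 CPM per kb.

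Besides ALDH3A2, 3 members were higher in 22Rv1 than in both other lines. ALDH5A1, the succinate semialdehyde dehydrogenase that ends GABA breakdown, was at 85.1, 86.6 and 84.5 CPM in 22Rv1, 7.77, 6.16 and 6.81 CPM in LNCaP, and 2.02, 1.70 and 1.46 CPM in LNCaP95. ALDH7A1, the lysine-pathway enzyme also called antiquitin, was at 83.3, 89.5 and 83.1 CPM in 22Rv1. It had 2804 counts over those libraries, 2 over the LNCaP CTRL sh libraries and 0 over the LNCaP95 ones. The ratio of 22Rv1 to LNCaP was 1438, with a 95% exact interval of 398 to 11878 that covers counting error only, and 22Rv1 was at least 1006-fold higher than LNCaP95 against a floor of 3 counts over the group. ALDH4A1, which oxidizes the same pyrroline-5-carboxylate in proline breakdown that ALDH18A1 produces, was at 12.6 ± 0.763 CPM per kb in 22Rv1, 8.87 ± 0.566 in LNCaP and 5.41 ± 0.885 in LNCaP95.

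**Figure D2:**
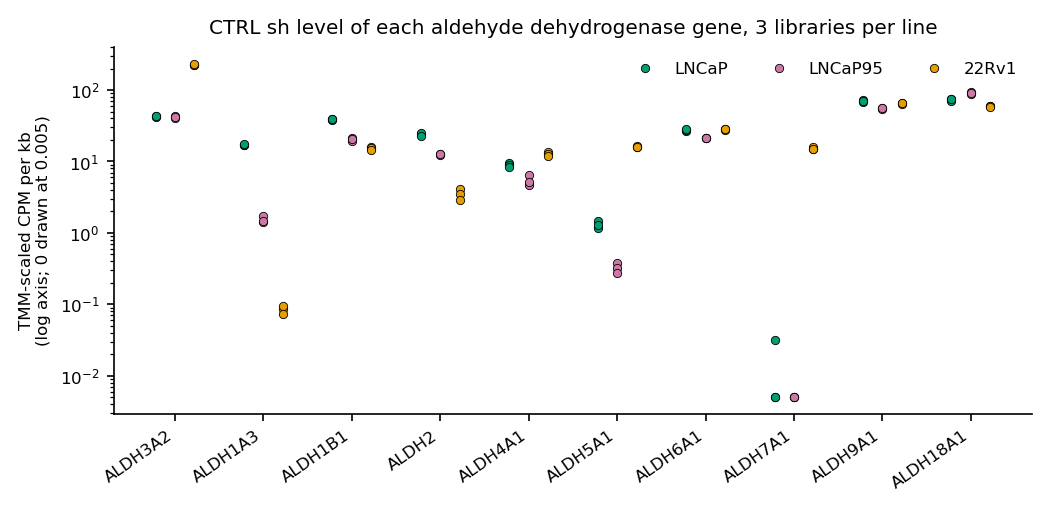
Points are the 3 CTRL sh libraries of each cell line (colour) for each of the 10 members, in TMM-scaled CPM per kb of annotated exon on a log axis, with libraries at 0 drawn at 0.005. ALDH3A2 stands at 227 CPM per kb in 22Rv1, and ALDH7A1 is near 0 outside that line.

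The next comparison asked how ALDH3A2 changed with CPSF1 knockdown. In 22Rv1 its level went from 1038, 1068 and 1101 CPM with CTRL sh to 720.7, 711 and 710.1 CPM under CPSF1 sh1 and 599.8, 586 and 601 CPM under CPSF1 sh2. The 3 groups did not overlap, and CPSF1 sh2 libraries were the lowest. The log2 fold change with both hairpins pooled was -0.71 (SE 0.066), and it was -0.59 (SE 0.034) with CPSF1 sh1 and -0.85 (SE 0.034) with CPSF1 sh2, which left 66.8% and 55.7% of the CTRL sh level. Both hairpins were compared with the same CTRL sh libraries. Counting from the most reduced gene, ALDH3A2 was number 122 of 11728 genes tested in that line. The difference between hairpins did not enter its selection and was -0.26 (CPSF1 sh2 minus CPSF1 sh1, SE 0.035, adjusted p = 2.51e-04), where 11.3% of genes differed. CPSF1 mRNA itself was at 69.2% and 72.5% of its CTRL sh level with CPSF1 sh1 and CPSF1 sh2 in 22Rv1, and did not differ between hairpins by the same test (0.067, SE 0.069, adjusted p = 0.578).

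In LNCaP95 the same gene fell less. Its CPM were 189, 202 and 195 with CTRL sh, 166, 176 and 163 with CPSF1 sh1, and 167, 169 and 168 with CPSF1 sh2. All 6 CPSF1 sh libraries lay below the CTRL sh libraries, and the log2 fold change was -0.22 (SE 0.041, adjusted p = 4.78e-04). The hairpins gave nearly the same value, with a difference of 5.03e-04 (SE 0.043, adjusted p = 0.995).

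The LNCaP result differed with the hairpin and with the library that stood apart. ALDH3A2 was at 200.0, 206 and 201 CPM with CTRL sh, 179.5, 179 and 234 CPM with CPSF1 sh1, and 166, 162 and 164 CPM with CPSF1 sh2. Apart from CPSF1 sh1 replicate 3, every knockdown library was below the controls. With all libraries the log2 fold change was -0.16 (SE 0.090, adjusted p = 0.143). Without that library it was -0.24 (SE 0.042, adjusted p = 1.86e-04). With all libraries in the fit of 3 groups it was -0.023 with CPSF1 sh1 (adjusted p = 0.778, and -0.17 with adjusted p = 9.46e-04 without that library) and -0.30 with CPSF1 sh2 (adjusted p = 6.80e-04), and the mean of both hairpins in such a fit was called (-0.16, adjusted p = 0.0196). Over 19 alternatives the adjusted p ranged from 1.65e-07 to 0.751. The hairpin difference (CPSF1 sh2 minus CPSF1 sh1) was -0.27 (SE 0.068, adjusted p = 0.00993) with that library and -0.13 (SE 0.040, adjusted p = 0.0327) without it, and its adjusted p ranged from 0.00112 to 0.0909 over 14 alternatives, the call being lost with DESeq2 (-0.27). In these fits 14.8% and 13.8% of genes differed between hairpins.

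Set side by side, the log2 fold change of ALDH3A2 in 22Rv1 was lower than in LNCaP (difference -0.54, SE 0.068) and in LNCaP95 (difference -0.50, SE 0.068), values that describe the pattern for which it was chosen. Without the LNCaP library that stood apart they were -0.47 (SE 0.042) and -0.50 (SE 0.041). Between LNCaP95 and LNCaP the difference was -0.040 (SE 0.071, adjusted p = 0.646), and 0.028 (SE 0.045, adjusted p = 0.605) without that library. The knockdown level in 22Rv1 stayed above the CTRL sh level of both other lines in every library. The per-kb sum of the 10 members went from 443 ± 4.97 to 381 ± 8.15 CPM under CPSF1 sh1 and 355 ± 5.56 under CPSF1 sh2 in 22Rv1. Without ALDH3A2 it was 216 ± 1.76, 229 ± 6.88 and 228 ± 4.51 CPM, so the lower sum came from ALDH3A2, and the sum of the other 9 was higher in each knockdown library than in the controls. For all 10 members it was 304 ± 3.63, 310 ± 5.28 and 307 ± 1.42 in LNCaP and 250 ± 4.06, 246 ± 0.460 and 243 ± 2.65 in LNCaP95 (SD, n = 3).

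**Figure D3:**
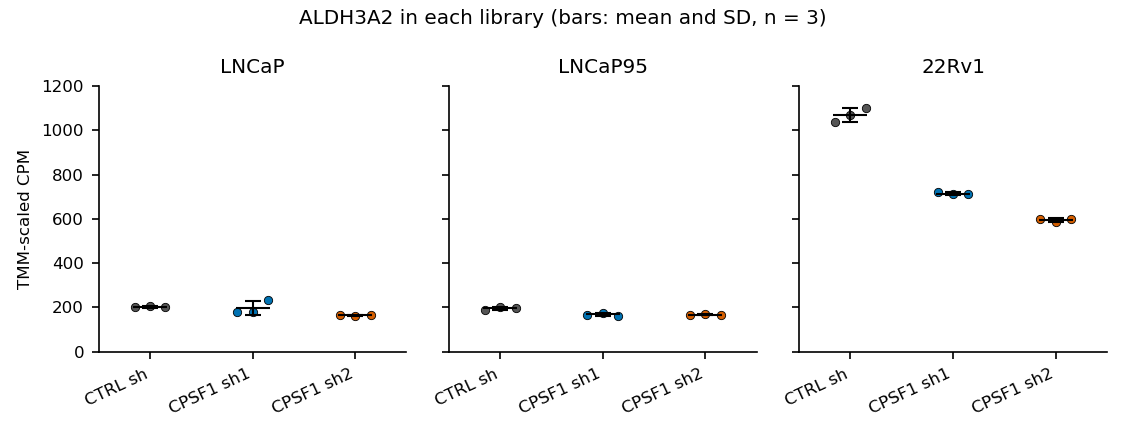
TMM-scaled CPM of ALDH3A2 in each library by hairpin (x axis) in each cell line, with the mean and SD of 3 replicates. In 22Rv1 the groups sit at means of 1069, 714 and 596 CPM without overlap, and 1 LNCaP CPSF1 sh1 library sits at 234 CPM above its controls.

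Among the 8 other members tested in 22Rv1, 2 rose (ALDH4A1 and ALDH18A1) and 6 were not called, where 12.7% of all genes were higher, 14.3% lower and 26.9% either. In the fit of 3 groups, 3 of the 8 were called with CPSF1 sh1 and 3 with CPSF1 sh2, against 19.9% and 40% of genes. The 6 knockdown libraries lay on the same side of the controls for 2 of the 8 and for 28.2% of genes. These counts leave out ALDH3A2, which was chosen for its fall in this line. The shares depended on CPSF1 sh1 replicate 3, the 22Rv1 library that differed most from its replicates. Without it 18.9% of genes were higher and 20.2% lower. The member and hairpin counts are given only with that library. The log2 fold changes of the tested paralogs lay between -0.036 for ALDH6A1 and 0.19 for ALDH4A1. ALDH4A1 was at 49.6, 46.3 and 44.0 CPM with CTRL sh, 50.6, 53.4 and 57.3 CPM with CPSF1 sh1, and 53.0, 53.2 and 52.2 CPM with CPSF1 sh2 (log2 fold change 0.19, SE 0.058, adjusted p = 0.027). All 6 knockdown libraries were higher than the controls, but the call was lost without CTRL sh replicate 2 (0.18) or CTRL sh replicate 3 (0.15), with a replicate block (0.19, adjusted p = 0.0551) and when CPSF1 sh1 alone was compared (0.21, adjusted p = 0.0647), with an adjusted p of 0.00961 to 0.14 over 19 alternatives. ALDH18A1 was at 224, 223.5 and 220.2 CPM with CTRL sh, 259.7, 239 and 237 CPM with CPSF1 sh1, and 256, 249.6 and 255 CPM with CPSF1 sh2 (log2 fold change 0.16, SE 0.042, adjusted p = 0.0106). The call was lost without CTRL sh replicate 3 (0.16) and when CPSF1 sh1 alone was compared (0.15), with an adjusted p of 2.41e-05 to 0.0624 over 19 alternatives. For ALDH7A1, abundant enough for a test only in this line, the change was 0.13 (SE 0.055, adjusted p = 0.0832). It passed the threshold without CPSF1 sh2 replicate 2 (0.16), with hairpins as separate groups (0.13) and with CPSF1 sh1 alone (0.18), with an adjusted p of 0.0414 to 0.259 over 19 alternatives. ALDH1B1, ALDH2, ALDH5A1, ALDH6A1 and ALDH9A1 were not called, although ALDH1B1 was called with CPSF1 sh2 alone (0.17, adjusted p = 0.00721). ALDH1B1 differed between hairpins in 22Rv1 by 0.22 (SE 0.057, adjusted p = 0.0251). This call was lost without any of the 3 CPSF1 sh2 libraries (0.20 to 0.24) and with DESeq2 (0.22, adjusted p = 0.0721). Its adjusted p was 0.0268 to 0.107 over 14 alternatives.

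ALDH1A3 did not reach the level for testing in 22Rv1, where its libraries held 4 to 27 counts. It was at 0.489, 0.544 and 0.418 CPM with CTRL sh, 1.19, 1.60 and 1.25 CPM with CPSF1 sh1, and 2.33, 2.79 and 1.83 CPM with CPSF1 sh2. The 3 groups did not overlap, and CPSF1 sh2 libraries were the highest.

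In LNCaP cells 3 of 9 tested members rose (ALDH1B1, ALDH4A1 and ALDH5A1) and ALDH2 fell, where 31.1% of all genes were higher, 31% lower and 62.1% either. In the fit of 3 groups, 5 members were called with CPSF1 sh1 and 7 with CPSF1 sh2, against 62.6% and 64.6% of genes. Knockdown libraries all lay on the same side of the controls for 3 of the 9 members and 55.8% of genes. Without the library that stood apart, 3 members rose and 2 fell, ALDH3A2 being added, where 30.8% of genes were higher and 31.1% lower. The hairpin counts were then 6 and 7 of 9, against 60.4% and 65.7% of genes, with ALDH5A1 lost and ALDH3A2 and ALDH6A1 gained for CPSF1 sh1, and 4 of 9 members and 58.4% of genes had knockdown libraries on the same side of the controls. ALDH4A1 had the largest log2 fold change of any tested member in any line, from 34.6, 33.1 and 30.4 CPM with CTRL sh to 109, 105 and 103 CPM under CPSF1 sh1 and 103, 98.1 and 94.1 CPM under CPSF1 sh2. The knockdown libraries were all well above the controls, with a log2 fold change of 1.65 (SE 0.059, adjusted p = 2.94e-11) and no called difference between hairpins. ALDH2 went from 52.2, 54.6 and 50.1 CPM to 19.4, 20.4 and 18.1 CPM under CPSF1 sh1 and 26.0, 26.5 and 25.6 CPM with CPSF1 sh2. Its log2 fold change was -1.18 (SE 0.10, adjusted p = 1.54e-07), and the 3 groups were separate, with CPSF1 sh2 above CPSF1 sh1 by 0.43 (SE 0.075, adjusted p = 6.73e-04). Without the library that stood apart, ALDH4A1 and ALDH2 changed by 1.65 and -1.13, and the ALDH2 hairpin difference was 0.38 (SE 0.085, adjusted p = 0.00384).

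Smaller rises in LNCaP were those of ALDH1B1 and ALDH5A1. ALDH1B1 was at 117, 119 and 119 CPM with CTRL sh, 130.2, 134 and 123 CPM with CPSF1 sh1, and 138, 144 and 138 CPM with CPSF1 sh2, and changed by 0.20 (SE 0.045, adjusted p = 0.00151), or by 0.22 without the library that stood apart. ALDH5A1 was at 7.77, 6.16 and 6.81 CPM with CTRL sh, 7.66, 7.94 and 11.6 CPM with CPSF1 sh1, and 10.5, 9.44 and 10.0 CPM with CPSF1 sh2 (log2 fold change 0.48, SE 0.14, adjusted p = 0.008). Its groups overlapped, and its highest value was in the library that stood apart. Without that library the change was 0.43 (SE 0.13, adjusted p = 0.0125). Without CTRL sh replicate 2 the call was lost (0.40), with an adjusted p of 5.36e-04 to 0.0538 over 19 alternatives. ALDH1A3, ALDH6A1, ALDH9A1 and ALDH18A1 were not called in LNCaP. In alternatives, ALDH9A1 was called lower with no filter (-0.10), with hairpins as separate groups (-0.075) and with CPSF1 sh2 alone (-0.12), ALDH18A1 higher with CPSF1 sh2 alone (0.10) and ALDH1A3 higher with CPSF1 sh1 alone (0.16). The hairpins nevertheless differed for ALDH1A3, by -0.18 (SE 0.040, adjusted p = 0.0049), with CPSF1 sh1 libraries at 107 to 113 CPM and CPSF1 sh2 libraries at 95.5 to 98.5 CPM, the latter overlapping the CTRL sh range. Without the library that stood apart this difference was -0.19.

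In LNCaP95 cells 1 of 8 tested members rose (ALDH1B1) and 3 fell (ALDH2, ALDH6A1 and ALDH3A2), where 33.2% of all genes were higher, 33.7% lower and 66.9% either. In the fit of 3 groups, 5 members were called with CPSF1 sh1 and 5 with CPSF1 sh2, against 66.4% and 73.4% of genes. Knockdown libraries all lay on the same side of the controls for 4 of the 8 members and 60% of genes. ALDH1B1 went from 66.4, 59.5 and 63.2 CPM to 103, 95.1 and 97.5 CPM under CPSF1 sh1 and 102, 107 and 107 CPM with CPSF1 sh2, a log2 fold change of 0.69 (SE 0.056, adjusted p = 6.95e-07). All knockdown libraries lay above the controls and the hairpin ranges overlapped. ALDH6A1 went from 129, 129.9 and 128 CPM to 80.3, 91.4 and 86.4 CPM under CPSF1 sh1 and 67.6, 72.9 and 73.0 CPM with CPSF1 sh2. That was a log2 fold change of -0.72 (SE 0.079, adjusted p = 6.82e-06), with a hairpin difference of -0.27 (SE 0.054, adjusted p = 7.78e-04). ALDH2 went from 27.6, 26.3 and 27.4 CPM to 17.2, 15.2 and 15.7 CPM under CPSF1 sh1 and 10.6, 9.82 and 8.05 CPM with CPSF1 sh2, a log2 fold change of -1.07 (SE 0.18, adjusted p = 2.28e-04). Here CPSF1 sh2 gave the lower level (hairpin difference -0.76, SE 0.10, adjusted p = 1.54e-05), whereas in LNCaP CPSF1 sh1 did. Whether the hairpin difference itself differed between lines was not tested.

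ALDH4A1, which rose in LNCaP, was at 23.6, 17.2 and 19.0 CPM with CTRL sh and at 19.6 to 24.4 CPM in the 6 knockdown libraries of LNCaP95 (log2 fold change 0.15, SE 0.11, adjusted p = 0.218). The ranges overlapped, and the change was called without CTRL sh replicate 1 (0.30) and with CPSF1 sh2 alone (0.25), with an adjusted p of 0.0332 to 0.677 over 19 alternatives. ALDH1A3 was not called in LNCaP95, but its hairpins differed by 0.37 (SE 0.12, adjusted p = 0.0235), with CPSF1 sh1 at 6.70 to 7.13 CPM and CPSF1 sh2 at 8.23 to 9.98 CPM. This call was lost without CPSF1 sh1 replicate 1 (0.38), CPSF1 sh1 replicate 3 (0.35) or CPSF1 sh2 replicate 2 (0.28) and with DESeq2 (0.37), with an adjusted p of 0.0162 to 0.135 over 14 alternatives. In LNCaP95, 34.1% of genes differed between hairpins. ALDH9A1 and ALDH18A1 changed by 0.014 and 0.015 and were not called, but with library size alone as scaling they were at 0.10 (adjusted p = 0.0331) and 0.10 (adjusted p = 0.0284). ALDH5A1 did not exceed 2 CPM in every library and was not tested. It was at 1.46 to 2.02 CPM with CTRL sh and 2.99 to 4.01 CPM in the knockdown libraries, which did not overlap.

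**Figure D4:**
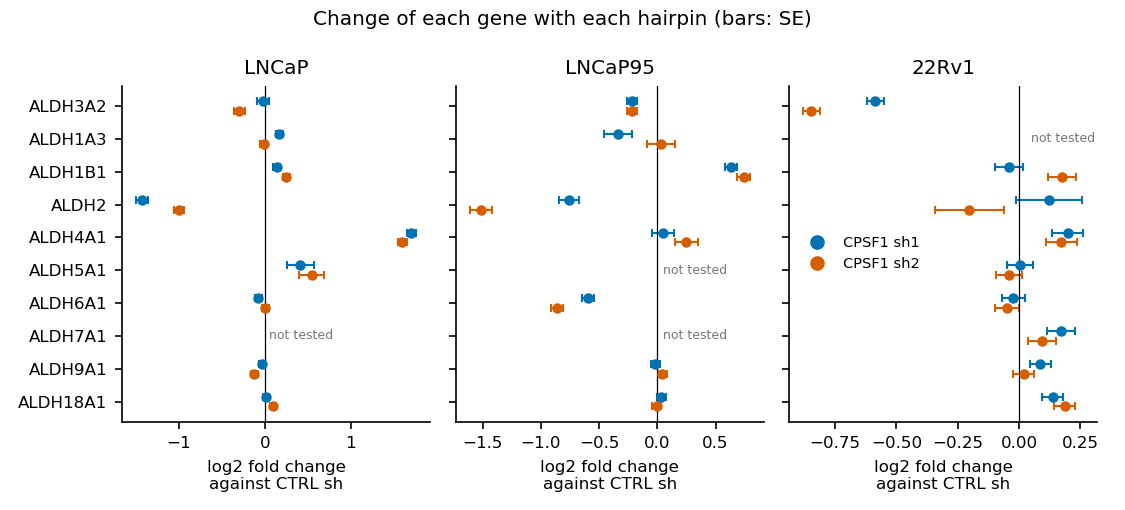
Log2 fold change against CTRL sh (x axis, scaled separately per line) of each member with CPSF1 sh1 and CPSF1 sh2, with SE bars, from fits of 3 groups per line. ALDH3A2 is the only member well below 0 with both hairpins in 22Rv1, at -0.59 and -0.85, while ALDH2 is below 0 with both in LNCaP and LNCaP95.

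**Figure D5:**
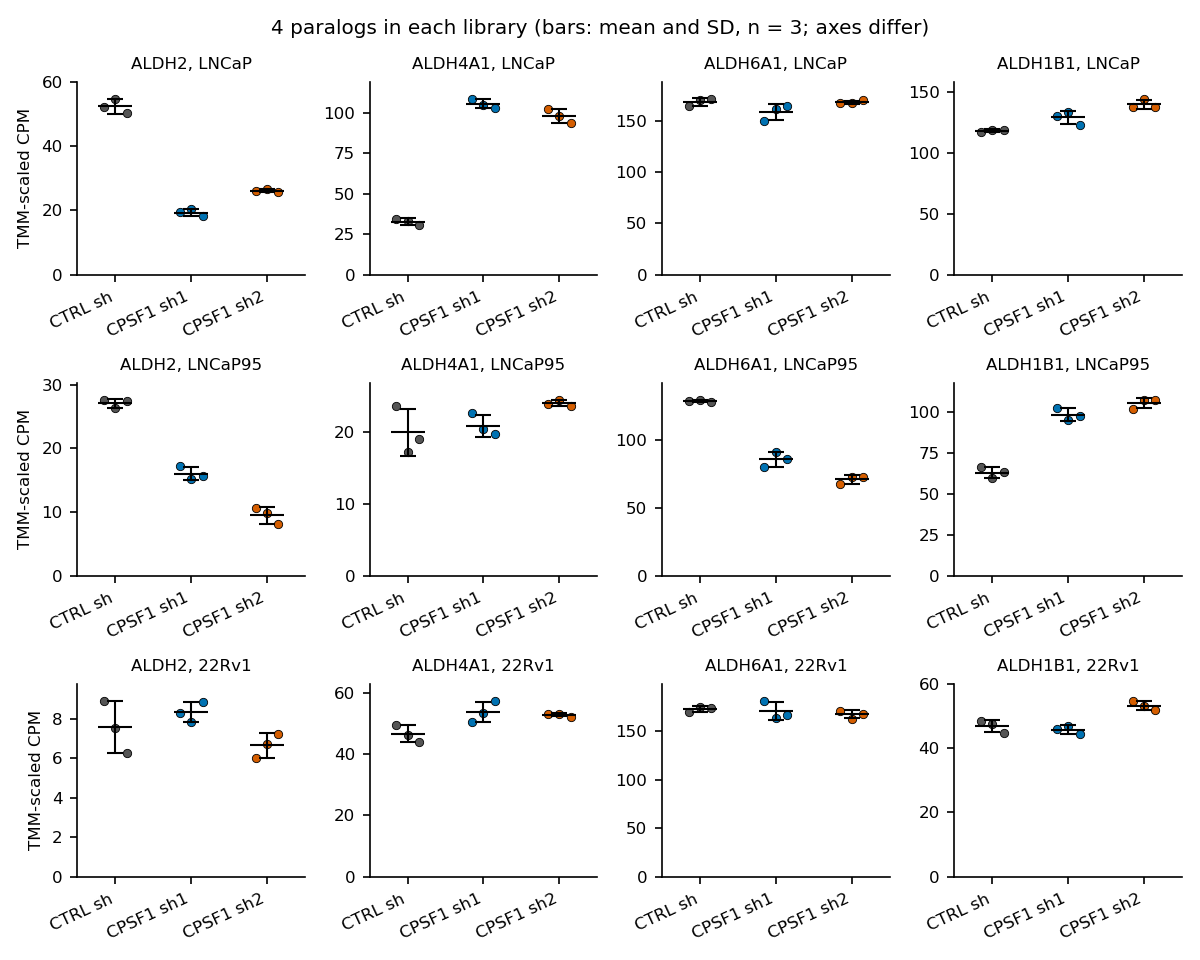
TMM-scaled CPM of ALDH2, ALDH4A1, ALDH6A1 and ALDH1B1 (columns) in each library of each line (rows) by hairpin, with the mean and SD of 3 replicates. ALDH4A1 rises from a mean of 32.7 to 106 and 98.3 CPM in LNCaP, and ALDH6A1 drops from 129 to 86.0 and 71.2 CPM in LNCaP95.

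Whether the effect of knockdown differed from line to line was tested on genes above 2 CPM in all 27 libraries, which left 7 members (ALDH3A2 among them, without a test where 22Rv1 entered). LNCaP95 differed from LNCaP for 4 of 7 members, where 59.7% of 10317 genes differed. The effect was higher in LNCaP95 for ALDH1B1 by 0.51 (SE 0.055, adjusted p = 3.13e-09) and lower for ALDH4A1 (-1.49, SE 0.10, adjusted p = 9.37e-14) and ALDH6A1 (-0.67, SE 0.056, adjusted p = 1.23e-11). A difference of 0.11 for ALDH9A1 was not called without the LNCaP library that stood apart, and it was called in 17 of 32 alternatives in all. Without that library the differences of ALDH1B1, ALDH4A1 and ALDH6A1 were 0.49, -1.50 and -0.66. 22Rv1 differed from LNCaP for 4 of 6 members (ALDH2, ALDH4A1, ALDH9A1 and ALDH18A1), where 50.3% of genes differed. It differed from LNCaP95 for 4 of 6 (ALDH1B1, ALDH2, ALDH6A1 and ALDH18A1), where 61.6% differed. ALDH2 was higher in 22Rv1 by 1.18 against LNCaP (SE 0.12, adjusted p = 3.87e-09) and by 1.09 against LNCaP95 (SE 0.13, adjusted p = 2.07e-08), on a 22Rv1 level of 60 to 109 counts per CTRL sh library. Without the LNCaP library that stood apart they were 1.16 and 1.09. These contrasts share the libraries of each line.

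Of the 9 other ALDH genes in the table, ALDH3B2 and ALDH16A1 were tested in every line, ALDH1L2 in LNCaP95 and 22Rv1, and ALDH1A1 in 22Rv1. ALDH3B2, a close paralog of ALDH3A2, moved in opposite directions. It went from a mean of 44.0 ± 2.02 CPM to 31.5 ± 4.32 and 27.3 ± 2.29 CPM in LNCaP (log2 fold change -0.58, SE 0.088, adjusted p = 4.66e-05), and from 63.8 ± 5.36 to 106 ± 6.38 and 132 ± 4.81 CPM in LNCaP95 (0.89, SE 0.10, adjusted p = 9.98e-06), with CPSF1 sh1 and CPSF1 sh2 in that order (SD, n = 3). The difference between those lines was 1.47 (SE 0.091, adjusted p = 1.29e-14). ALDH16A1 rose by 0.19 in LNCaP and 0.59 in LNCaP95. ALDH1L2, the mitochondrial 10-formyltetrahydrofolate dehydrogenase, and ALDH1A1, a cytosolic retinaldehyde dehydrogenase, fell in 22Rv1. ALDH1L2 went from 136 ± 4.72 to 89.6 ± 15.5 and 75.0 ± 2.61 CPM (-0.73, SE 0.096, adjusted p = 1.33e-04), and ALDH1A1 from 48.5 ± 1.58 to 37.3 ± 2.56 and 34.2 ± 3.05 CPM (-0.44, SE 0.070, adjusted p = 4.68e-04). Thus 2 of the 4 other family genes tested in 22Rv1 fell, where 14.3% of all genes did, and in LNCaP and LNCaP95, where 62.1% and 66.9% of genes were called in either direction, ALDH3B2 and ALDH16A1 both were, whereas ALDH1L2 was not in LNCaP95 (-0.090, adjusted p = 0.623). ALDH1A1 was near 0 in both other lines outside the LNCaP library that stood apart, where it was at 2.43 CPM. ALDH8A1 was too low for testing, at 0.52 to 1.39 CPM with CTRL sh and 3.01 to 4.83 CPM with CPSF1 hairpins in 22Rv1. ALDH1A2, at 1.06 to 1.43 CPM with CTRL sh and 3.70 to 5.40 CPM with CPSF1 hairpins in LNCaP, was also not tested. ALDH8A1 was at 0 CPM with CTRL sh and 0.541 to 1.99 CPM with CPSF1 hairpins in LNCaP, and at 0.072 to 0.178 and 1.64 to 2.46 CPM in LNCaP95. ALDH1L1, the cytosolic counterpart of ALDH1L2, was at 0.0947 to 0.266 CPM with CTRL sh and 1.18 to 2.27 CPM with CPSF1 hairpins in LNCaP, and at 0.714 to 1.26 and 2.00 to 3.08 CPM in LNCaP95. In the lines named with values, the knockdown libraries of ALDH8A1, ALDH1A2 and ALDH1L1 lay above the controls, and in 22Rv1 those of ALDH1A2 and ALDH1L1 overlapped them. The shares of genes with separated libraries given above cover only genes that passed the filter. For genes below it no such share is given, so these separations are descriptions only. ALDH3A1 and ALDH3B1 stayed at or below 3.42 CPM in every library.

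Genes that feed or share the members' pathways were taken from lists, and the counts of every list are to be read against all tested genes. Of these, 31.1% rose and 31% fell in the LNCaP comparison, 33.2% rose and 33.7% fell in that of LNCaP95, and 12.7% rose and 14.3% fell in that of 22Rv1. Of 10 genes of fatty aldehyde supply, 5 of 7 tested rose and 1 fell in LNCaP, 5 of 8 rose in LNCaP95, and 1 of 9 rose and 1 fell in 22Rv1. The median log2 fold changes were 0.20, 0.25 and 0.022, against -3.60e-04, 0.0013 and -0.0024 over all tested genes. SPHK2, a sphingosine kinase upstream of the sphingolipid aldehyde, rose in all 3 lines by 0.51, 0.33 and 0.34. HACL1, which releases an aldehyde in phytanic acid oxidation, rose by 0.54 in LNCaP, and FAR1, a fatty acyl-CoA reductase, by 0.19 in LNCaP and 0.47 in LNCaP95. FAR2, the paralog of FAR1, fell in 22Rv1 from 112 ± 5.61 to 79.9 ± 5.82 and 65.6 ± 0.659 CPM (-0.63, SE 0.081, adjusted p = 1.14e-04).

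Among 8 aldehyde-reducing and other aldehyde-clearing enzymes, 1 of 6 tested rose and 2 fell in LNCaP, 2 of 6 fell in LNCaP95 and 1 of 7 fell in 22Rv1. The medians were -0.063, -0.13 and -0.069. AKR7A2, an aldehyde reductase, fell in LNCaP (log2 fold change -0.31) and LNCaP95 (-0.52), DCXR fell in LNCaP95 (-0.38) and CBR4 in 22Rv1 (-0.28), whereas ADH5 rose by 0.13 in LNCaP.

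For proline and glutamate metabolism, where ALDH4A1 and ALDH18A1 act, 2 of 7 tested genes rose in LNCaP, 4 of 7 rose and 2 fell in LNCaP95, and 1 of 8 rose and 1 fell in 22Rv1, with medians of 0.026, 0.16 and 0.018. PYCRL, a pyrroline-5-carboxylate reductase, rose in each line by 0.65, 0.71 and 0.27. GLUD1, glutamate dehydrogenase, rose in LNCaP by 0.38 (SE 0.033, adjusted p = 1.68e-07) and fell in LNCaP95 (-1.19, SE 0.085, adjusted p = 2.69e-07). GLUL, glutamine synthetase, fell by 0.28 in 22Rv1 and rose by 0.17 in LNCaP95.

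Branched-chain amino acid, lysine and GABA metabolism holds the substrates of ALDH6A1, ALDH7A1 and ALDH5A1. Here 4 of 13 tested genes rose and 6 fell in LNCaP, 1 of 15 rose and 8 fell in LNCaP95, and 1 of 14 rose and 3 fell in 22Rv1, with medians of -0.092, -0.23 and -0.038. BCKDHA, a subunit of the branched-chain keto acid dehydrogenase, fell in LNCaP (log2 fold change -0.58) and LNCaP95 (-1.10). HIBADH, the step just before ALDH6A1 in valine breakdown, fell in all 3 lines (-0.55, -0.28 and -0.37). BCAT1, the cytosolic branched-chain transaminase, rose by 1.49 in LNCaP95 and fell by 0.93 in 22Rv1. ABAT, the GABA transaminase upstream of ALDH5A1, rose by 0.44 in 22Rv1 and fell by 0.23 in LNCaP95.

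Of the retinoic acid genes around ALDH1A3, 1 of 6 tested rose and 4 fell in LNCaP, 2 of 6 rose and 2 fell in LNCaP95, and 2 of 8 rose and 1 fell in 22Rv1, with medians of -0.22, -0.018 and -0.018. DHRS3, which reduces retinaldehyde back to retinol, fell in LNCaP (log2 fold change -1.29) and LNCaP95 (-1.56). RARB, a retinoic acid receptor, rose in all 3 lines by 0.57, 0.54 and 0.56. CRABP2, a retinoic acid carrier, rose by 0.39 in 22Rv1.

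Without the LNCaP library that stood apart, the LNCaP counts of these lists were unchanged except that 5 rather than 6 genes of branched-chain amino acid, lysine and GABA metabolism fell. The list medians in LNCaP were then 0.19 for fatty aldehyde supply, -0.056 for aldehyde clearing, 0.029 for proline and glutamate, -0.082 for branched-chain, lysine and GABA, and -0.24 for retinoic acid genes, and ALDH3B2 was at -0.55. Without CPSF1 sh1 replicate 3 in 22Rv1, where 18.9% of genes were then higher and 20.2% lower, 2 of 9 genes of fatty aldehyde supply rose, 3 of 7 aldehyde-clearing enzymes fell and 2 of 8 proline and glutamate genes fell, and the other list counts in that line did not change. The medians in 22Rv1 were then 0.027 for fatty aldehyde supply, -0.12 for aldehyde clearing, 0.040 for proline and glutamate, -0.045 for branched-chain, lysine and GABA, and -0.052 for retinoic acid genes.

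Other genes at the locus of ALDH3A2 were examined over 500000 bases to each side, a window chosen after its values were seen. SLC47A1, a transporter gene on the same strand whose annotated end lies 69102 bases upstream, also fell in 22Rv1, from 36.4 to 25.7 CPM under CPSF1 sh1 and 20.5 CPM under CPSF1 sh2 (log2 fold change -0.66, SE 0.094). Because of that choice of window, this value is a description without a p-value. Of all genes tested in 22Rv1, 14.3% were lower. SLC47A1 was near 0 in both other lines apart from the LNCaP library that stood apart. SLC47A2, on the opposite strand with its annotated end 690 bases from that of ALDH3A2, had no counts in 22Rv1. EPN2, B9D1, MAPK7, ULK2, AKAP10 and SPECC1, the other tested genes of the window, were not called in 22Rv1. In LNCaP95, EPN2 (-0.51), MAPK7 (-0.58) and AKAP10 (-0.68) were called lower, ULK2 (0.18) and SPECC1 (0.42) higher, and B9D1 was not called. In LNCaP, EPN2 (-0.17), B9D1 (-0.81) and ULK2 (-0.29) were called lower, and MAPK7, AKAP10 and SPECC1 were not called. Within 10000 bases on the same strand, ALDH3A2 had no neighbour. ALDH4A1, which rose in LNCaP, has IFFO2 upstream at 1500 bases, which was at 0.11 in LNCaP (log2 fold change, adjusted p = 0.17) and rose by 0.48 in 22Rv1 (adjusted p = 0.0135). LRRK1, 2589 bases downstream of ALDH1A3, fell by 0.74 in LNCaP95 (adjusted p = 0.00202). ACAD10, upstream of ALDH2, rose by 0.18 in 22Rv1, and TCTN3, upstream of ALDH18A1, by 0.22 in LNCaP95.

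The genes whose log2 CPM followed that of ALDH3A2 most closely over the 27 libraries were LRRC8A (Pearson r = 0.989), TMSB10 (0.987), ACAT2 (0.985), DDAH1 (0.985) and PTBP3 (0.984). The libraries share 3 cell lines, and all 5 genes were higher in 22Rv1 than in the other lines with CTRL sh. The 22Rv1 knockdown libraries entered this choice, so the log2 fold changes of the 5 genes there, -0.41, -0.34, -0.35, -0.26 and -0.43 in the order named, are part of what chose them.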

How the data were processed

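The deposited table gives raw counts per gene, without normalization, which the authors made from reverse-stranded TruSeq libraries aligned to GRCh37 (hg19) with HISAT2 2.1.0 and counted on Ensembl exons with featureCounts. The submitters' processing notes give Subread 2.0.3, and the paper's methods name another version. The 10 members and all gene lists were chosen with earlier results of these data known.

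A separate fit per line used R 4.3.3 and edgeR 4.0.16 (quasi-likelihood F-test, legacy option). The fit per line and the F-test follow the study's methods, which name another edgeR version and no legacy option. Genes had to exceed 2 CPM in each of the line's 9 libraries. After TMM scaling, the 6 CPSF1 sh libraries were set against the 3 CTRL sh libraries, with Benjamini-Hochberg adjustment over all tested genes and a threshold of 0.05. Hairpins were compared in fits of 3 groups per line. The difference of the knockdown effect between lines came from a fit of all 27 libraries, and levels between lines from the 9 CTRL sh libraries (genes with a mean above 2 CPM). Printed CPM are scaled by TMM over 27 libraries, and levels between genes are per kb of exon. The tests were also run on simulated counts, the outcome of which is not given here. Named are all members, CPSF1, detected other ALDH genes, the 2 largest called changes per list and line, the 5 genes most correlated with ALDH3A2, and same-strand neighbours within 10000 bases. Sequences were read from GRCh37 with pysam 0.24.0. Alternatives are other tools (DESeq2 1.42.0), scalings, filters, single hairpins, a replicate block and left-out libraries. Recounting the gene lists without a single library was added after the data were seen.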

Additional observations from a re-analysis of the deposited data

Results flagged for a closer look

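A knockdown effect that differed between 2 cell lines, by a test of the difference itself in edgeR, drew attention to 6 members (ALDH1B1, ALDH2, ALDH4A1, ALDH6A1, ALDH9A1 and ALDH18A1). All values are differences of log2 fold changes and no explanation of them was tested.

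Between LNCaP95 and LNCaP, the effect was higher in LNCaP95 for ALDH1B1 by 0.51 (adjusted p = 3.13e-09) and ALDH9A1 by 0.11 (adjusted p = 0.0416), and lower for ALDH4A1 (-1.49, adjusted p = 9.37e-14) and ALDH6A1 (-0.67, adjusted p = 1.23e-11). The ALDH9A1 call was lost without any LNCaP95 CTRL sh library (0.089 to 0.11), without LNCaP CTRL sh replicate 1 (0.072) or 3 (0.11), and without replicate 1 or 3 of LNCaP CPSF1 sh1, 1 or 2 of LNCaP CPSF1 sh2, 1 or 3 of LNCaP95 CPSF1 sh1 and 1 or 3 of LNCaP95 CPSF1 sh2 (0.096 to 0.11), and with DESeq2 (0.10) and filterByExpr (0.067), with an adjusted p of 6.19e-04 to 0.232 over 32 alternatives. The remaining 3 calls held in all 32.

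Between 22Rv1 and LNCaP, it was higher in 22Rv1 for ALDH2 by 1.18 (adjusted p = 3.87e-09), ALDH9A1 by 0.14 (adjusted p = 0.0094) and ALDH18A1 by 0.12 (adjusted p = 0.0274), and lower for ALDH4A1 (-1.45, adjusted p = 1.46e-14). The ALDH9A1 call was lost without LNCaP CTRL sh replicate 1 (0.11), with an adjusted p of 0.00527 to 0.0587 over 32 alternatives. The ALDH18A1 call was lost without LNCaP CTRL sh replicate 1 (0.10) or 3 (0.10), 22Rv1 CTRL sh replicate 3 (0.11) or 22Rv1 CPSF1 sh1 replicate 1 (0.095), with an adjusted p of 0.0104 to 0.0885 over 32 alternatives. Without LNCaP CPSF1 sh1 replicate 3, ALDH4A1 was at -1.46 and ALDH18A1 at 0.11.

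Between 22Rv1 and LNCaP95, it was higher in 22Rv1 for ALDH2 by 1.09 (adjusted p = 2.07e-08), ALDH6A1 by 0.69 (adjusted p = 8.12e-12) and ALDH18A1 by 0.14 (adjusted p = 0.00586), and lower for ALDH1B1 (-0.63, adjusted p = 5.42e-10). The ALDH18A1 call was lost with library size alone (0.070), with an adjusted p of 0.00132 to 0.159 over 32 alternatives.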

How the results depend on the processing

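The fall of ALDH3A2 in 22Rv1 kept its direction under every alternative run, at -0.58 with CPSF1 sh1 alone, -0.85 with CPSF1 sh2 alone and -0.74 to -0.68 when each library was left out in turn. In LNCaP, the number of members called lower was 2 with no filter, 3 with hairpins as separate groups, 3 with CPSF1 sh2 alone, and 1 to 2 without single libraries. In LNCaP95, the number called higher was 3 with library size alone, 2 with edgeR's filterByExpr, 2 with no filter, 2 with CPSF1 sh2 alone, and 1 to 2 without single libraries. In 22Rv1, the number called higher was 1 with CPSF1 sh1 alone and 0 to 3 without single libraries. The hairpins differed for 1 member in 22Rv1 with DESeq2 and for 1 to 2 without single libraries. Members whose effect differed between 22Rv1 and LNCaP numbered 2 to 4 without single libraries and 2 to 6 over all 32 alternatives. Between 22Rv1 and LNCaP95 they numbered 3 to 6 over all 32. The cause of these shifts was not tested.

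Same-numbered libraries did not deviate together in every pair (3 of 9 correlations above 0.1 in LNCaP, 3 of 9 in LNCaP95, 1 of 9 in 22Rv1). Their highest correlation was 0.25, 0.28 and 0.20 in these lines, against 0.067, 0.23 and 0.26 for libraries of different number. A pairing in LNCaP is thus not excluded. The main fits did not pair libraries by number, and a replicate block was run as an alternative. With it the ALDH1B1 hairpin difference in LNCaP was called (0.12, adjusted p = 0.0279). With a replicate block, 1 member was called higher in 22Rv1, where ALDH4A1 was at 0.19 (adjusted p = 0.0551).

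No rise or fall of a member called in the main fits turned sign. Some changes called only in an alternative did. They were ALDH1A3 with CPSF1 sh1 alone, at 0.16 in LNCaP and -0.34 in LNCaP95, and ALDH1B1 in 22Rv1 with CPSF1 sh2 alone (0.17). ALDH9A1 and ALDH18A1 in LNCaP95 with library size alone (0.10 and 0.10) were the others. With CPSF1 sh1 alone, ALDH9A1 was at -0.016 in LNCaP95, and ALDH1B1 at -0.033, ALDH2 at 0.13 and ALDH5A1 at 0.012 in 22Rv1. With CPSF1 sh2 alone, ALDH1A3 was at -0.0090 and ALDH6A1 at 0.0071 in LNCaP, and ALDH1A3 at 0.030 and ALDH18A1 at -0.0056 in LNCaP95. In LNCaP95, ALDH9A1 and ALDH18A1 were at -0.027 and -0.026 with filterByExpr and at -0.036 and -0.034 with no filter, and the ALDH3A2 hairpin difference was at -0.0063 with filterByExpr and -0.020 with library size alone. With library size alone, the LNCaP95 minus LNCaP effects of ALDH3A2 and ALDH18A1 were 0.037 and 0.053, and the 22Rv1 minus LNCaP95 effects of ALDH4A1 and ALDH9A1 were -0.042 and -0.038.

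Without single libraries, ALDH9A1 ranged from -0.0032 to 0.027 and ALDH18A1 from -0.0019 to 0.034 in LNCaP95, and ALDH2 from -0.14 to 0.11 in 22Rv1. The hairpin difference ranged from -0.018 to 0.039 for ALDH3A2 in LNCaP95, from -0.057 to 0.020 for ALDH6A1 and from -0.068 to 0.024 for ALDH4A1 in 22Rv1. The effect difference ranged from -0.012 to 0.028 for ALDH6A1 (22Rv1 minus LNCaP), from -0.045 to 0.0028 for ALDH18A1 and -0.076 to 0.028 for ALDH3A2 (LNCaP95 minus LNCaP), and from -0.12 to 0.13 for ALDH4A1 (22Rv1 minus LNCaP95). ALDH1A3 in 22Rv1, ALDH5A1 in LNCaP95 and ALDH7A1 outside 22Rv1 did not exceed 2 CPM in every library of the line, so their changes were not tested. For ALDH5A1 only CTRL sh libraries fell short, since its knockdown libraries were at 2.99 to 4.01 CPM. The filter thus also leaves out genes that are higher with knockdown but low in the controls.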
